A study of Homo sapiens with 8 samples.

Results

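The S100 calcium-binding proteins were followed through a 4-line model of breast cancer progression by poly A+ RNA-seq. The members were 10 named genes, S100A2, S100A4, S100A6, S100A7, S100A8, S100A9, S100A10, S100A11, S100A14 and S100P, out of 56632 genes in the count table, of which 29502 had a count in at least 1 library. They were taken as a list by name, and all 10 were among the 18431 genes that passed the filter on low counts and were tested. The lines were M1, which is MCF10A, a breast epithelial line that became immortal in culture and forms no tumours; M2 (MCF10AT1k.cl2), which is MCF10A carrying the activated T24-HRAS oncogene, recovered after growth as a xenograft; and M3 (MCF10Ca1h) and M4 (MCF10CA1a.cl1), each derived from a carcinoma that arose from M2 xenografts. All were grown as 3D acini on Matrigel for 8 days in medium with 2% horse serum and 2.5% Matrigel, seeded at 8000 cells per mL. EGF was present at 10 ng/ml in M1 and M2 and was omitted in M3 and M4, so line and EGF cannot be told apart where M3 or M4 is set against M1 or M2. Each stage is a single line, with 2 biological replicates, and p-values measure the spread between these libraries. The 6 comparisons between lines share libraries and are not independent of one another.

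Library totals ran from 69669970 to 107350344 expected counts. Levels are given as CPM, counts scaled by the TMM-adjusted library total, replicate 1 first. Matched by expression, the columns of the study's supplementary expression table exchange the libraries labelled M1 replicate 2 and M2 replicate 1. These are called the doubted libraries below. Over 137 genes, on log2 values centred per gene, the column named M2 replicate 1 was closest to the library labelled M1 replicate 2 (r = 0.984). The column named M1 replicate 2 was closest to the library labelled M2 replicate 1 (r = 0.978). Each other column was closest to the library of its own label. The sample labels are used here throughout, and calls on members that end when these libraries are exchanged are given with the exchanged value. Statements on which M1 or M2 libraries are lower or higher follow the labels. HRAS did not separate M1 (154 and 139 CPM) from M2 (160 and 154 CPM), so its level is no check of these labels; it was 269 and 327 CPM in M3 and 335 and 352 CPM in M4. The M2 replicates lay much closer to each other than those of the other lines, with a chi-square per degree of freedom of 6.65 against 233 in M1, 293 in M3 and 111 in M4, which is still above counting noise. Spearman rho of log2 CPM was 0.9934 between the libraries labelled M2 and 0.9749 between those labelled M1. In the exchanged pairs it was 0.9675 (M1 replicate 1 with M2 replicate 1) and 0.9711 (M1 replicate 2 with M2 replicate 2). Which labelling is right was not tested. The defining epithelial markers were present in all libraries: KRT5 lay between 2837 and 9190 CPM and CDH1 between 126 and 222 CPM. Of the 7 listed markers, as labelled, 2 were called higher in M2 than in M1 and 4 in M3 than in M1. In M3 against M2, 1 was called higher, and none was lower in these comparisons. Of all genes, 3.37%, 13.5% and 4.15% were called there. KRT5, KRT14 and TP63 were called lower and EPCAM and KRT18 higher in M4 than in M1 and than in M2. KRT5 and KRT14 were also lower in M4 than in M3. KRT14 was at 2.30 and 2.74 CPM in M4 and at 99.7 and 91.1 CPM in M3. The marker shifts in M4 accompany the lower S100A4, S100A8 and S100A9 levels of that line described below. Their part in those levels was not tested.

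S100 proteins are small EF-hand proteins, most of which bind calcium and then expose a surface for partner proteins. Some act mainly inside the cell, as S100A10 and S100A11 do with annexins at membranes, and others, such as S100A8 and S100A9, which together form calprotectin, can also be secreted and signal through the receptors RAGE and TLR4. Many of the genes sit close together on chromosome 1 beside the epidermal differentiation complex, the gene cluster of the cornified envelope of squamous epithelium. In GRCh37, the build of the count table, 9 members lie within 1.63 Mb of chromosome 1 (151955391 to 153589462), 8 of them on the minus strand and S100A9 on the plus strand, and S100P is on chromosome 4 (6695605 to 6698897). S100A4 overlaps S100A3 on the same strand, and S100A6 and S100A11 each overlap a lncRNA gene on the opposite strand. Whether the counting used strand is not given in the sources used here, so reads shared by such neighbours cannot be told apart.

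The start sites of these neighbours differ in sequence, and all 10 members matched a RefSeq promoter window by symbol. The 60 bases before a RefSeq start site (GRCh38.p14) are printed for the members that changed in at least 1 comparison, so that the genes that moved together below can be read side by side. Capitals mark the motif TATAA where it begins 20 to 40 bases before the start, searched on the gene's own strand. For S100A2, with more than 1 start, the most upstream is shown, and for S100A8 the start that has the motif.
S100A8, chr1:153391074-153391133, minus strand: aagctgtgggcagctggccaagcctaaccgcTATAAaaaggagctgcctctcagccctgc
S100A9, chr1:153357794-153357853, plus strand: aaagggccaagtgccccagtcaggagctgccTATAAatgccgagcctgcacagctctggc
S100A4, chr1:153545807-153545866, minus strand: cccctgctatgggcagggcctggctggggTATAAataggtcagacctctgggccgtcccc
S100A6, chr1:153535992-153536051, minus strand: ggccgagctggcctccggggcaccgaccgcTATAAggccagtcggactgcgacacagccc
S100A14, chr1:153616326-153616385, minus strand: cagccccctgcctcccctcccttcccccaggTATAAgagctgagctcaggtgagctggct
S100A2, chr1:153565845-153565904, minus strand: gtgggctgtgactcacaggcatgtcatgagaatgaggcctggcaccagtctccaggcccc
S100A10, chr1:151993860-151993919, minus strand: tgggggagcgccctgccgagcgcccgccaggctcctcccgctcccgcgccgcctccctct
S100A11, chr1:152037005-152037064, minus strand: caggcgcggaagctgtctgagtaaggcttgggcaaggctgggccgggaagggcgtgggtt

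TATAA stood in this position in 7 of the 10 members (the 5 shown, S100A7 and S100P), and in 7 of the members' 13 windows, against 3.91% of the promoter windows of all genes. It was not found there in S100A2, S100A10 and S100A11. TGANTCA, a pattern that reads the same on both strands and does not overlap TATAA, was present in 1 member's window, 52 bases before the S100A2 start shown, against 7.71% of all windows of the same length. The motifs were chosen after the sequences had been seen, and a match is a description of letters, not of a bound site.

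As labelled, the members as a group took up more of the RNA in every library of M2, M3 and M4 than in M1. Their share of all counts was 0.535% and 0.442% for the M1 libraries, 0.947% and 0.944% for M2, 2.09% and 1.76% for M3, then 1.25% and 1.01% for M4. With the doubted libraries exchanged, M1 would hold 0.535% and 0.947% and M2 0.442% and 0.944%, which overlap, while M3 and M4 stay above both. S100A2 alone supplied between 31.1% and 61.0% of the members' summed CPM. Line means were highest in M3 for 6 members (S100A2, S100A6, S100A9, S100A10, S100A11 and S100A14), in M1 for S100A4 and S100A7, in M2 for S100A8 (in M1 with the labels exchanged) and in M4 for S100P. In bulk RNA, fewer cells that express a gene and less RNA per cell cannot be told apart.

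**Figure D1:**
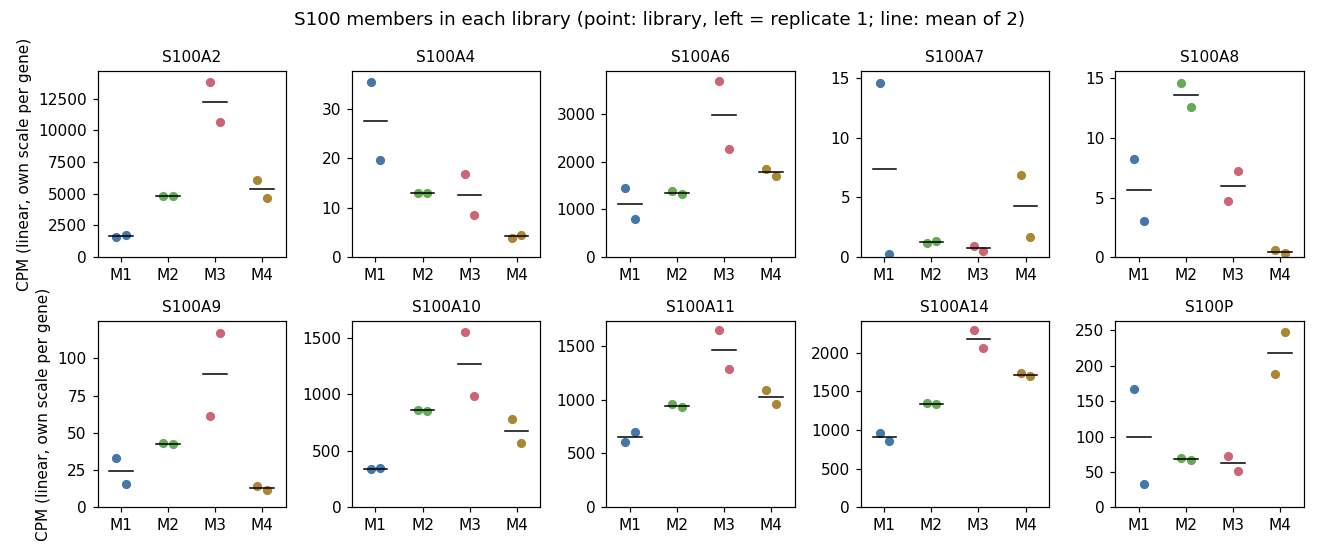
CPM of each S100 member on the vertical axis (linear, a separate scale from 0 for each gene) in the 4 lines on the horizontal axis; a point is 1 library, with replicate 1 on the left, and a line is the mean of both. S100A2, S100A10, S100A11 and S100A14 have their lowest libraries in M1 and their highest in M3, S100A8 is at 0.599 and 0.320 CPM in M4, and the M1 libraries lie far apart for S100A7 and S100P.

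A member was called changed at an adjusted p under 0.05 and an absolute log2 fold change above 1 (edgeR quasi-likelihood F test, Benjamini-Hochberg over all 18431 genes). By this rule 19 of the 60 member tests were called, while 3.37% to 20.7% of all genes were called in a single comparison. M2 had 2 members higher than M1 and none lower, where 3.37% of all genes were called in either direction. M3 had 6 higher than M1 and none lower (13.5% of all genes), and 1 higher than M2 and none lower (4.15% of all genes). M4 had 1 higher and 2 lower than M1 (20.7% of all genes), 3 lower than M2 (13.9% of all genes) and 4 lower than M3 (10.3% of all genes). The members' median log2 fold change was 1.21 in M3 against M1 and -0.83 in M4 against M3, and the medians of all genes tested were -0.02 in both. In M4 the members' median was 0.65 against M1 and 0.14 against M2, with 6 of 10 positive in each. The medians of all genes there were -0.017 and -0.007. With the M1 replicate 2 and M2 replicate 1 libraries exchanged, no member was called in M2 against M1, M3 against M1 or M3 against M2 (0 of 10 in each; 0, 219 and 214 of all genes were called).

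**Figure D2:**
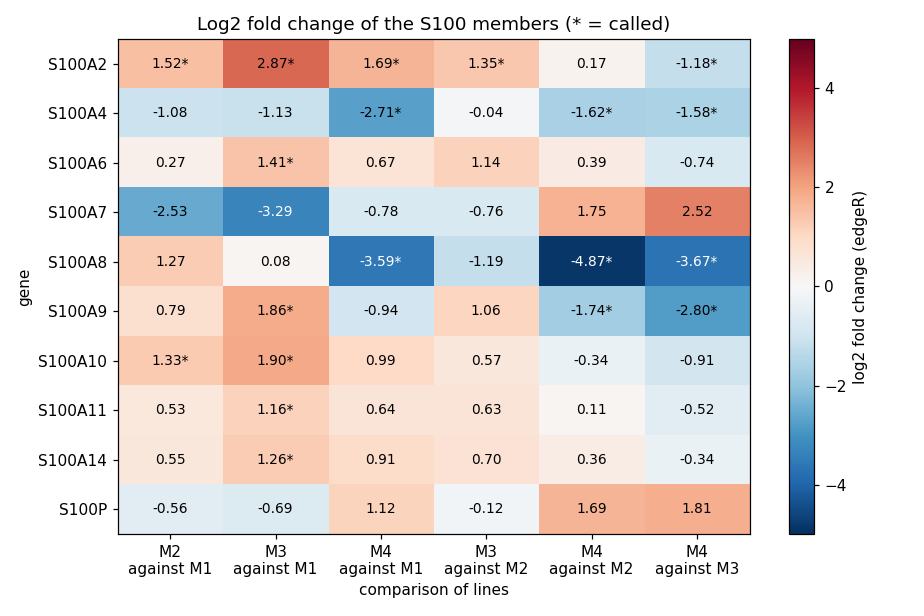
Log2 fold change (colour and printed value) of the 10 members, one per row, in the 6 comparisons of lines, one per column; an asterisk marks a call at an adjusted p under 0.05 and an absolute log2 fold change above 1. The M3 against M1 column holds 6 positive calls, and S100A8 holds the lowest value, -4.87 in M4 against M2.

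S100A2, a member found mainly in nuclei of basal and squamous epithelial cells, was the most abundant member by CPM in every library. It measured 1622 and 1720 CPM in M1, 4802 and 4785 CPM in M2, 13796 and 10622 CPM in M3, and 6112 and 4639 CPM in M4. The M1 libraries were the lowest and the M3 libraries the highest, and those of M2 lay between the M4 libraries. S100A2 was higher than in M1 by 1.52 ± 0.23 on the log2 scale (SE) in M2, 2.87 ± 0.24 in M3 and 1.69 ± 0.23 in M4, with adjusted p of 0.0128, 0.000577 and 0.00175. It was also higher in M3 than in M2, by 1.35 ± 0.22 (adjusted p = 0.0165), and fell by 1.18 ± 0.22 from M3 to M4 (adjusted p = 0.0137). M4 did not differ detectably from M2 (0.17 ± 0.22, adjusted p = 0.619).

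The S100A2 calls did not all hold when libraries were changed. With the labels exchanged the difference of M2 from M1 went to 0.02 (adjusted p = 1, range over all alternatives 5.98e-10 to 1), M3 against M1 to 1.93 (0.176, range 7.72e-37 to 0.176) and M4 against M1 to 0.74 (0.477, range 1.8e-13 to 0.477). The M2 against M1 call was lost without M1 replicate 1 (adjusted p = 0.0505), M2 replicate 1 (0.125) or M2 replicate 2 (0.127), and without both doubted libraries (0.209). The M3 against M2 call was lost without either M2 library (0.192 and 0.196), with the labels exchanged (0.188) and without both doubted libraries (0.211, range 3.91e-08 to 0.211). The M4 against M3 call was lost without M4 replicate 1 (0.0567) or M4 replicate 2 (0.0886), without both doubted libraries (0.0566), with only these lines in the fit (0.0643) and with the labels exchanged (0.29, range 2.51e-06 to 0.29). Without M3 replicate 1 that change was -0.99, inside the fold limit. Leaving out 1 M2 library leaves that line with 1 sample, which is then assumed to vary like the other lines.

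S100A10 (p11), which forms a tetramer with annexin A2, likewise had its lowest line mean in M1 and its highest in M3. It measured 337 and 345 CPM in M1, 862 and 852 CPM in M2, 1553 and 987 CPM in M3, and 780 and 572 CPM in M4. Its M1 libraries lay below all others. The gene was higher than in M1 by 1.33 ± 0.25 in M2 (log2, SE, adjusted p = 0.0266) and by 1.90 ± 0.25 in M3 (adjusted p = 0.0028). In M4 it was 0.99 ± 0.25 above M1 (adjusted p = 0.0195) and fell by 0.91 ± 0.25 from M3 (adjusted p = 0.0416), both inside the fold limit. Exchanging the labelled libraries took the M2 against M1 difference to -0.003 (adjusted p = 1, range 1.84e-08 to 1) and M3 against M1 to 1.08 (0.352, range 5.13e-17 to 0.352). The M2 against M1 call was also lost when any of the 4 libraries of these lines was left out, with adjusted p of 0.0845 and 0.0683 without M1 replicates 1 and 2, and 0.181 and 0.18 without M2 replicates 1 and 2. Without both doubted libraries it was 1.34 (0.249).

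ANXA2, the partner of S100A10, measured 2747 and 2785 CPM in M1, 4875 and 4749 CPM in M2, 12562 and 10338 CPM in M3, and 6803 and 5474 CPM in M4. It was called higher in M3 than in M1 (2.05 ± 0.21, adjusted p = 0.00116) and than in M2 (1.25 ± 0.20, 0.0155), and in M4 than in M1 (1.15 ± 0.20, 0.00528). None of these calls held with the labels exchanged (adjusted p = 0.111, 0.113 and 0.302). The call of M3 against M2 was lost without M2 replicate 1 (log2 1.27) or 2 (1.23), and M4 against M1 was at 0.99 without M4 replicate 1. Without both doubted libraries the calls of M3 against M2 (1.27) and M4 against M1 (1.16) were also lost. Per kilobase of transcript, the ratio of ANXA2 to S100A10 was lowest in M2, at 2.44 and 2.41, and lay between 3.48 and 4.52 in the other lines. With the labels exchanged M2 would not stand apart, at 3.48 and 2.41 against 3.52 and 2.44 in M1.

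S100A11, S100A6 and S100A14 were called higher in M3 than in M1 and were called in no other comparison. S100A11, a partner of annexin A1, measured 606 and 703 CPM in M1, 957 and 932 CPM in M2, 1643 and 1281 CPM in M3, and 1085 and 957 CPM in M4. S100A14, an epithelial member, measured 961 and 861 CPM in M1, 1344 and 1330 CPM in M2, 2290 and 2066 CPM in M3, and 1738 and 1693 CPM in M4. For both genes the libraries of M1 lay below, and those of M3 above, all others. S100A6 (calcyclin), which binds CACYBP and annexins, measured 1440 and 799 CPM in M1, 1393 and 1313 CPM in M2, 3683 and 2261 CPM in M3, and 1850 and 1701 CPM in M4. Its M1 and M2 libraries overlapped, because the M1 replicates differed 1.80-fold.

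The differences of M3 from M1 were 1.16 ± 0.19 for S100A11 (log2, SE, adjusted p = 0.00545), 1.26 ± 0.16 for S100A14 (adjusted p = 0.00247) and 1.41 ± 0.32 for S100A6 (adjusted p = 0.0205). S100A14 also passed the p threshold, below the fold limit, in M4 against M1 (0.91 ± 0.16, adjusted p = 0.00488) and M3 against M2 (0.70 ± 0.16, adjusted p = 0.0451). With the labels exchanged none of the 3 calls held, at 0.90 for S100A11 (adjusted p = 0.179, range 2.36e-07 to 0.179), 0.92 for S100A14 (0.167, range 2.56e-12 to 0.167) and 1.07 for S100A6 (0.163, range 2.09e-09 to 0.163). Nor did they hold without both doubted libraries, at 1.28 (0.0528), 1.18 (0.0589) and 1.05 (0.144). Without M3 replicate 1, S100A11 was at 0.98, under the fold limit, and S100A6 had an adjusted p of 0.0733. The S100A6 call was also lost without M1 replicate 2 (0.0691) and with only these lines in the fit (0.0811). An S100A11 or S100A6 read shared with the opposite-strand gene could not be set apart, and reads on S100A11 pseudogenes numbered at most 4 in any library.

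S100A8 and S100A9, the subunits of calprotectin, were both lower in M4 than in M2 and M3, by unequal amounts. S100A8 measured 8.22 and 3.04 CPM in M1, 14.6 and 12.6 CPM in M2, 4.69 and 7.21 CPM in M3, and 0.599 and 0.320 CPM in M4, the last from 68 and 25 counts. Both M4 libraries lay below all others. The log2 difference of M4 was -3.59 ± 0.55 (SE) from M1, -4.87 ± 0.58 from M2 and -3.67 ± 0.55 from M3, so S100A8 was 12.1-fold, 29.2-fold and 12.8-fold lower in M4. The adjusted p were 0.00302, 0.00187 and 0.00714, and all of these calls held under each of the 16 alternatives, with adjusted p up to 0.029, 0.0183 and 0.0473.

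S100A9 measured 33.4 and 15.98 CPM in M1, 42.9 and 42.7 CPM in M2, 61.6 and 117 CPM in M3, and 14.3 and 11.4 CPM in M4. The M3 libraries were the highest and the M4 libraries the lowest. The gene was higher in M3 than in M1 by 1.86 ± 0.40 (adjusted p = 0.0165) and was lower in M4 than in M2 (-1.74 ± 0.40, adjusted p = 0.0201) and than in M3 (-2.80 ± 0.41, adjusted p = 0.00692). M4 against M1 did not pass the test (-0.94 ± 0.39, adjusted p = 0.104). The M4 against M3 call was lost without M4 replicate 1 (0.0514) or 2 (0.0529, the highest of a range from 1.16e-35). The M4 against M2 call was lost without M2 replicate 1 (0.106) or 2 (0.103), without M4 replicate 1 (0.0844) or 2 (0.126), and with the labels exchanged (-1.19, adjusted p = 0.145, range 4.79e-15 to 0.145). The M3 against M1 call was lost without M3 replicate 2 (0.0741), without both doubted libraries (0.078), with only these lines in the fit (0.0731) and with the labels exchanged (1.23, adjusted p = 0.237, range 3.91e-17 to 0.237).

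Per library, S100A9 exceeded S100A8 in CPM by 4.07-fold and 5.26-fold in M1, 2.94-fold and 3.38-fold in M2, 13.1-fold and 16.3-fold in M3, and 23.9-fold and 35.5-fold in M4. The ranges of the 4 lines did not overlap as labelled, but with the labels exchanged those of M1 (4.07 and 2.94) and M2 (5.26 and 3.38) would. The difference in ratio itself was not tested. These genes are also abundant in neutrophils and monocytes, so the leukocyte list is given beside them. Of its 6 markers 4 were tested, and the summed level of the 6 was 19.6 to 29.3 CPM in M1, 6.22 to 6.24 CPM in M2, 2.5 to 6.2 CPM in M3 and 3.77 to 4.03 CPM in M4, most of it CD14 in M1 and M2. The pan-leukocyte gene PTPRC was at 0 in 7 of the 8 libraries and at 0.0366 CPM in M1 replicate 2, and the neutrophil receptor CSF3R was at or below 0.254 CPM. ITGAM measured 4.22 and 4.84 CPM in M1 but no more than 1.52 CPM elsewhere, LYZ was at most 0.464 CPM, and MPO was at 1.04 and 1.32 CPM in M4 and at most 0.213 CPM elsewhere. In M4 against M1, CD14 and LYZ were called lower and MPO higher, and in M4 against M2 and against M3 MPO was the 1 marker called, higher. The part of such cells in the result was not tested.

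**Figure D3:**
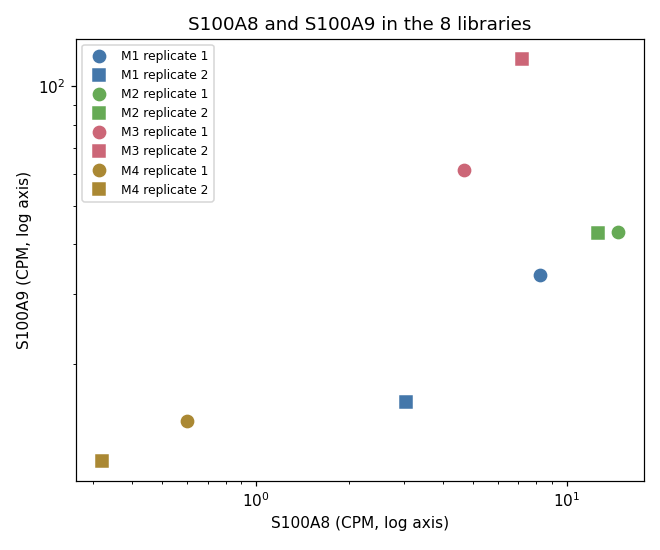
S100A8 (horizontal) against S100A9 (vertical) in CPM, both on log axes, with 1 point per library, coloured by line and shaped by replicate. The M4 points lie far to the left, at 0.599 and 0.320 CPM of S100A8, while S100A9 there is 14.3 and 11.4 CPM, and the M3 points are highest for S100A9 at 61.6 and 117 CPM.

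S100A4, known as metastasin for its link to tumour spread and a binder of non-muscle myosin, was lowest in M4. It measured 35.4 and 19.6 CPM in M1, 13.02 and 12.91 CPM in M2, 16.7 and 8.44 CPM in M3, and 3.96 and 4.47 CPM in M4. The M4 libraries lay below all others and the M1 libraries above them. S100A4 was lower in M4 than in M1 by 6.53-fold (log2 -2.71 ± 0.39, adjusted p = 0.00227), and this call held under each of the 16 alternatives (adjusted p up to 0.0301). It was also lower in M4 than in M2 (-1.62 ± 0.37, adjusted p = 0.0202) and than in M3 (-1.58 ± 0.37, adjusted p = 0.028). The M4 against M2 call was lost without M2 replicate 1 (0.0997), M2 replicate 2 (0.0951), M4 replicate 1 (0.117) or M4 replicate 2 (0.0862), without both doubted libraries (0.0548) and with the labels exchanged (0.0531, range 4.19e-08 to 0.117). The M4 against M3 call was lost without M2 replicate 1 (0.0601), M2 replicate 2 (0.06), M3 replicate 1 (0.118), M4 replicate 1 (0.15) or M4 replicate 2 (0.107), and with the labels exchanged (0.124, range 1.32e-07 to 0.15). S100A3, which shares part of its locus with S100A4, was highest in M3 (11.8 and 11.7 CPM) and had 4.63 and 5.07 CPM in M1.

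S100A7 (psoriasin), an antimicrobial protein of keratinocytes, was called in no comparison. It measured 14.6 and 0.256 CPM in M1, 1.22 and 1.35 CPM in M2, 0.973 and 0.540 CPM in M3, and 6.91 and 1.72 CPM in M4. The 2 M1 libraries stood 57.0-fold apart and enclosed all the others, so the direction of any difference from M1 depended on 1 library. M4 against M1 was -0.78 ± 1.36 (adjusted p = 0.695), and 4.09 without M1 replicate 1 (adjusted p = 0.0262, range over all alternatives 0.0262 to 0.981). M3 against M1 was -3.29 ± 1.497 (adjusted p = 0.158), and -4.27 without M1 replicate 2 (adjusted p = 0.0121, range 2.46e-12 to 0.403) but 1.55 without M1 replicate 1. M2 was called below M1 without M1 replicate 2 (-3.50, adjusted p = 0.0435, range 1.19e-07 to 1), and M4 above M3 without M1 replicate 1 or 2 (0.0432 and 0.0392, range 1.11e-07 to 0.71).

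S100P, a ligand of RAGE and a binder of ezrin, was the member with its highest level in M4, and it too was called in no comparison. It measured 167 and 33.0 CPM in M1, 69.1 and 66.4 CPM in M2, 72.9 and 51.5 CPM in M3, and 188 and 247 CPM in M4. Both M4 libraries lay above all others, and M1 replicate 1 stood 5.06-fold above M1 replicate 2. M4 was above M2 by 1.69 ± 0.63 (log2, SE, adjusted p = 0.0985) and above M3 by 1.81 ± 0.64 (adjusted p = 0.0938). Both differences passed with only the compared lines in the fit (adjusted p = 0.00179 and 0.00947), and without M1 replicate 1 (0.00236 and 0.00317) or M1 replicate 2 (0.00263 and 0.00345). The ranges over all alternatives were 2.23e-15 to 0.349 for M2 and 2.75e-17 to 0.283 for M3. Without M1 replicate 1, M4 was also called above M1, at 2.74 (adjusted p = 0.00137, range 1.64e-07 to 0.464, against 1.12 and 0.213 with it). Without M1 replicate 2, M2 and M3 were called below M1, at -1.30 (adjusted p = 0.0347, range 0.0347 to 1) and -1.42 (0.0115, range 0.00473 to 0.756).

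Some differences of other members were not called with all libraries in the fit but were when 1 was left out. Without M1 replicate 1, S100A6 was called higher in M4 than in M1 (1.17, adjusted p = 0.0339) and in M3 than in M2 (1.14, 0.0376), and S100A14 higher in M4 than in M1 (1.01, 0.0114). Without M1 replicate 2, S100A6 was called higher in M3 than in M2 (1.14, 0.0414), S100A9 lower in M4 than in M1 (-1.38, 0.0306) and S100A4 lower in M3 than in M1 (-1.49, 0.0354), the last also without M3 replicate 1 (-1.70, 0.0301). Without M4 replicate 2, S100A10 was called higher in M4 than in M1 (1.21, 0.0308), and without M3 replicate 2 it was called lower in M4 than in M3 (-1.20, 0.0141).

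Compared per kilobase of transcript, mean S100A2 was the highest member in M2, M3 and M4, at 4906, 12496 and 5502 CPM per kb, and S100A6 in M1, at 2580 against 1711 for S100A2. S100A7 was the lowest member in M2 and M3 (2.99 and 1.76 CPM per kb), and S100A8 in M1 and M4 (13.8 and 1.13 CPM per kb). The order in M1 rests on replicate 1, where S100A7 was at 14.6 CPM. In M1 replicate 2 S100A7 was at 0.256 CPM, below S100A8 at 3.04 CPM.

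Among 11 other S100 family genes, 6 were tested, and 5 of these were higher in M3 than in M1. S100B, a marker of glia and melanocytes, measured 9.06 and 21.3 CPM in M3 and at most 0.0854 CPM in every other library. S100A1, the member of striated muscle, measured 60.3 and 39.9 CPM in M3 and between 0.611 and 5.26 CPM elsewhere; it overlaps S100A13 on the opposite strand. S100A16, the neighbour of S100A14, measured 602 and 480 CPM in M1, 811 and 812 CPM in M2, 1659 and 1604 CPM in M3, and 1313 and 1359 CPM in M4. M2 against M1 had none of the 6 called, M3 against M1 had S100A1, S100A3, S100A13, S100A16 and S100B higher, and M3 against M2 had S100A1, S100A16 and S100B higher. M4 against M1 had S100A16 higher and S100A1 lower, M4 against M2 had none called, and M4 against M3 had S100A1, S100A3, S100A13 and S100B lower. The shares of all genes called were 3.37% in M2 against M1, 13.5% in M3 against M1 and 4.15% in M3 against M2. For M4 they were 20.7%, 13.9% and 10.3% against M1, M2 and M3. S100A1 differed by 3.76 ± 0.54 (log2, SE) in M3 against M1 (adjusted p = 0.00391) and by -5.65 ± 0.60 in M4 against M3 (adjusted p = 0.00256). S100A13 differed by -1.54 ± 0.23 in M4 against M3 (adjusted p = 0.00692) and S100A16 by 1.59 ± 0.17 in M3 against M1 (adjusted p = 0.00133). With the labels exchanged, S100A13 and S100A16 in M3 against M1 were lost (0.98, adjusted p = 0.176, range 2.07e-10 to 0.176, and 1.21, adjusted p = 0.108, range 9.49e-16 to 0.108), while S100A1 and S100B in that comparison and in M4 against M3 held under all alternatives. In M3 against M2, leaving out M2 replicate 1 or 2 ended the calls of S100A1 (0.0694 and 0.0578), S100A16 (0.208 in both) and S100B (0.116 in both), and without M3 replicate 1 S100A16 was at 0.99. The S100A1 call in M4 against M1 was lost without M1 replicate 2 (0.151), M2 replicate 1 (0.0531), M2 replicate 2 (0.0532) or M4 replicate 2 (0.15), with only these lines in the fit (0.0858), without both doubted libraries (0.173) and with the labels exchanged (-0.61, 0.623). The S100A3 call in M3 against M1 was lost without M1 replicate 1 (log2 1.22) and without both doubted libraries (log2 1.35). It was also lost with the labels exchanged (log2 0.945, adjusted p = 0.268). The S100A3 call in M4 against M3 was lost without either M2, either M3 library or M4 replicate 2 (log2 -1.045 to -0.698). Without both doubted libraries it was lost too (log2 -1.04). The same held without TMM (adjusted p = 0.0672), with only these lines in the fit (0.0897) and with the labels exchanged (0.173). With the labels exchanged, 2 of the 6 were higher in M3 than in M1, 1 in M3 than in M2, and 3 were lower in M4 than in M3. M4 against M1 then had none called, as S100A16 had an adjusted p of 0.0952. Without both doubted libraries 3 were higher in M3 than in M1, 2 in M3 than in M2, 3 were lower in M4 than in M3, and in M4 against M1 S100A16 was higher and none lower.

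**Figure D4:**
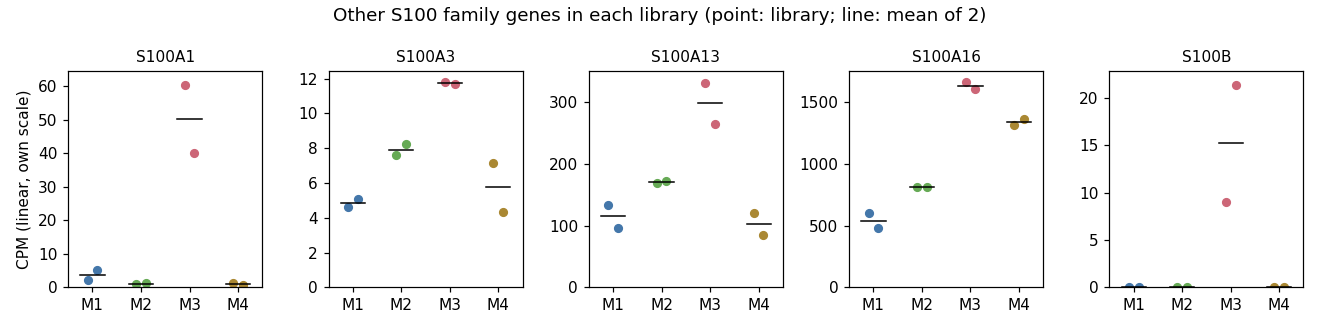
CPM (vertical, linear, a separate scale from 0 for each gene) of the other tested S100 family genes with a call, in the 4 lines (horizontal); a point is 1 library and a line the mean of both. S100A1 and S100B stand out in M3, at 60.3 and 39.9 CPM and at 9.06 and 21.3 CPM.

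Of 14 S100-binding proteins and receptors, all tested, none was called in M2 against M1, 4 were higher in M3 than in M1 and 3 in M3 than in M2. In M4, 4 were higher and 1 lower than in M1, 4 higher and 1 lower than in M2, and 2 higher and 1 lower than in M3. The shares of all genes called were 3.37% in M2 against M1, 13.5% in M3 against M1 and 4.15% in M3 against M2. For M4 they were 20.7%, 13.9% and 10.3% against M1, M2 and M3. ANXA1, the annexin bound by S100A11, was highest in M4 (2992 and 2415 CPM, against 612 and 1008 CPM in M1), at 1.74 ± 0.29 above M1 (adjusted p = 0.00388). ANXA6 measured 13.8 and 11.1 CPM in M3 and 0.820 and 0.423 CPM in M4, a difference of -4.31 ± 0.48 (adjusted p = 0.00276). TLR4, a receptor for calprotectin, was higher in M3 (15.2 and 24.7 CPM) and M4 (16.8 and 15.7 CPM) than in M1 (4.94 and 9.20 CPM), by 1.496 ± 0.34 and 1.203 ± 0.34 (adjusted p = 0.0201 and 0.0304); without M1 replicate 1 both calls were lost (0.0681 and 0.107). The TLR4 call in M3 was also lost without M3 replicate 2 (0.0945), and that in M4 without M2 replicate 1 (0.0541), M2 replicate 2 (0.054), M4 replicate 1 (0.109) or M4 replicate 2 (0.0953), with ranges over all alternatives of 1.23e-06 to 0.0945 and 0.000112 to 0.109. Both TLR4 calls, in M3 and in M4 against M1, were also lost with only the compared lines in the fit (adjusted p = 0.0675 and 0.0561). With the labels exchanged, 2 of the 14 were higher in M3 than in M1, none in M3 than in M2, and 2, 1 and 0 were higher in M4 than in M1, M2 and M3. The count higher in M3 than in M2 was 0 without M2 replicate 1 or 2 and 1 without M3 replicate 2. The count higher in M4 than in M2 was 0 without M2 replicate 1, M2 replicate 2 or M4 replicate 2 and 1 without M4 replicate 1. The count higher in M4 than in M3 was 0 without M2 replicate 1, M2 replicate 2, M3 replicate 2, M4 replicate 1 or M4 replicate 2, and 1 without M3 replicate 1. Without both doubted libraries, the calls of this list in M3 against M2 and in M4 against M2 were all lost. Some of those in M4 against M1 were lost too. In that fit ANXA6 was at 2.65 in M3 against M2 and -1.67 in M4 against M2 (log2), and TLR4 at 1.44 and 1.14. AGER, which encodes RAGE, was at 3.38 CPM or less in every library and was called in no comparison.

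The epidermal differentiation complex genes lie on the same stretch of chromosome 1, and 13 of the 15 listed were tested. In M4 against M1, 4 were higher and 1, PGLYRP4, was lower, while in M4 against M2, 7 were higher, with a median log2 fold change of 3.53 over the 13. In M4 against M3, 2 were higher, and none was called lower in M4 than in M2 or M3. The shares of all genes called were 20.7%, 13.9% and 10.3% in M4 against M1, M2 and M3. Their median log2 fold change in M4 against M2 was -0.007. The 7 became 5 with the labels exchanged, 3 without both doubted libraries, 0 without M2 replicate 1 or 2, and 4 without M4 replicate 1 or 2. The 2 became 0 with the labels exchanged and without M3 replicate 1, M3 replicate 2 or M4 replicate 1, and 1 without M2 replicate 1, M2 replicate 2 or both doubted libraries. The 4 against M1 became 8 without M1 replicate 1 and 2 without both doubted libraries, and the 1 lower was lost with the labels exchanged and without M1 replicate 1, M4 replicate 1 or M4 replicate 2. In M3, 3 of the 13 were called higher and 1 lower than in M1, where 13.5% of all genes were called. In M3 against M2, 1 was higher (4.15% of all genes), and in M2 against M1 none was called (3.37%). With the labels exchanged none of these calls in M3 held. SPRR2D, a cornified envelope precursor, measured 0.157 and 0.0122 CPM in M1, 0.521 and 0.564 CPM in M2, 14.6 and 20.9 CPM in M3, and 43.5 and 10.97 CPM in M4. LCE3D measured 0.0121 and 0.0244 CPM in M1 and 24.3 and 4.23 CPM in M4. In M4 the replicates of LCE3D differed 5.75-fold, more than those of any member. Those of SPRR2D differed 3.96-fold, more than those of any member but S100A7 (4.02-fold).

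As a description over the 8 libraries, the gene outside the list whose log2 CPM was most like a member's was LSM8 for S100A10 (Pearson r = 0.994), COX17 for S100A14 (0.994), STAC for S100A2 (0.989), SPAG7 for S100A4 (0.989), ENTREP3 for S100A9 (0.986), C16orf74 for S100A11 (0.986), ALDH16A1 for S100A8 (0.985), ITPRIP for S100P (0.979), GADD45B for S100A7 (0.97) and PMVK for S100A6 (0.966). The search covered 9364 genes with a mean of at least 10 CPM, and the libraries share lines and culture conditions, so high values are common in such a search: 79 genes reached 0.95 or more with S100A14.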

How the data were processed

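The authors trimmed poly A+ paired-end reads (Trimmomatic), aligned them to hg19 (GRCh37) with STAR and counted with RSEM on GENCODE 19; versions of these tools are not given in the sources used here. They deposited 1 table of expected counts per gene, not normalized, of 8 libraries; 0 columns belonged to no sample. Here the expected counts were rounded and tested with edgeR 4.0.16 (R 4.3.3; TMM, filterByExpr, robust quasi-likelihood fit of all 8 libraries, 1 coefficient per line), with Benjamini-Hochberg adjustment over 18431 genes. Levels are CPM from the TMM-scaled totals. Coordinates and lengths came from GENCODE 44 on GRCh37, start sites from RefSeq. Sample labels gave the groups. All 10 members, HRAS, up to 3 called genes with the largest change per list and comparison, and the most alike gene per member could be named; AGER, S100A3 and list genes outside that rule, and the motifs, were chosen after values were seen. The members and lists were chosen with earlier results of these data known. Alternatives were other scalings, DESeq2 1.42.0, no filter, a replicate block, only the lines compared, exchanged or left-out libraries and any fold. The scripts were tested on simulated data.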

Additional observations from a re-analysis of the deposited data

How the results depend on the processing

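Of the 19 calls on members, 4 (S100A8 in M4 against M1, M2 and M3, and S100A4 in M4 against M1) held under each of the 16 alternatives fitted; all 19 held with DESeq2-type size factors, with library totals, without the filter on low counts, with the replicate block and with DESeq2. Exchanging the M1 replicate 2 and M2 replicate 1 libraries kept 5 calls. The replicate numbers did not pair the libraries, since deviations of same-numbered libraries correlated at -0.02 to 0.12 between lines; the replicate block changed 1 of 60 member tests, S100A4 in M3 against M1 (-1.14, adjusted p = 0.0455 in edgeR, range over alternatives in log2 fold change -1.70 to -0.64). Among the other S100 family genes it ended the calls of S100A1 in M4 against M1 (-1.87, adjusted p = 0.0564) and S100A3 in M4 against M3 (-1.05, 0.0526). With 2 libraries per line, leaving out 1 rests on the spread of the others.

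Members called, without the filter, were 5 in M2 against M1 (1788 of all genes), 4 in M3 against M2 (1880) and 5 in M4 against M2 (3482), with 2916 of all genes in M4 against M3. DESeq2 called 4 members and 1323 genes in M2 against M1, and 3 and 1487 in M3 against M2. Exchanged libraries gave 0 members and 0 genes in M2 against M1, 0 and 219 in M3 against M1, 0 and 214 in M3 against M2, 2 members and 830 genes in M4 against M3, and 1559 genes in M4 against M1. Left out together, they gave 0 members and 29 genes in M2 against M1, 0 and 277 in M3 against M2, and 1625, 2425 and 1418 genes in M3 against M1, M4 against M1 and M4 against M2. With any fold change, members called were 6 in M4 against M1 and 2 in M3 against M2 (1022 of all genes), and genes were 3918, 5779, 4096 and 3091 in M3 against M1, M4 against M1, M4 against M2 and M4 against M3. Only the lines compared gave 1659 genes in M3 against M1. The cause of these shifts was not tested.

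Leaving out each library in turn, members called ranged from 0 to 3 in M2 against M1, 5 to 8 in M3 against M1, 3 to 7 in M4 against M1, 0 to 2 in M3 against M2, 1 to 4 in M4 against M2 and 1 to 6 in M4 against M3; genes called ranged from 0 to 876, 1752 to 2298, 2425 to 3742, 83 to 1073, 927 to 2834 and 598 to 2197.

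Directions turned with the exchanged libraries for S100A6 (-0.42), S100A8 (-0.55), S100A9 (-0.38), S100A10 (-0.003) and S100A14 (-0.073) in M2 against M1, S100A8 in M3 against M1 (-0.94), S100A10 in M4 against M2 (0.18) and S100P in M3 against M2 (0.32), and with both left out for S100A6 in M2 against M1 (-0.13) and S100A8 in M3 against M1 (-0.46). Leaving out 1 library in turn, log2 fold changes that turned ranged in M2 against M1 from -0.087 to 0.758 for S100A6, -3.50 to 2.32 for S100A7 and -1.30 to 1.04 for S100P; in M3 against M1 from -4.27 to 1.55 for S100A7, -0.46 to 0.98 for S100A8 and -1.42 to 0.92 for S100P; from -2.10 to 4.09 for S100A7 in M4 against M1; and from -0.62 to 0.37 for S100A4, -0.39 to 0.11 for S100P (M3 against M2) and -0.043 to 0.373 for S100A2 (M4 against M2). Only S100A10 in M2 against M1 was among the calls.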
